A study of Saccharomyces cerevisiae with 42 samples.

Results

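The comparison described here was the last step of a growth course, 6 h against 4 h, in BY4742, a haploid laboratory strain of the budding yeast Saccharomyces cerevisiae. It took in 12 of the 42 RNA-seq libraries of the series, 6 labelled 6 h and 6 labelled 4 h, and all 7127 annotated genes. The members were chosen by the time in the sample labels, not by any measured value. In all 12 libraries the genotype was wild type and the cultures grew in YPD, a rich medium with glucose, at 30 °C. Cells had been diluted into fresh YPD and grown for 2 h before the 0 h sample, and the 4 h and 6 h samples are counted from that point. The 6 libraries of a group are labelled as biological replicates. Stranded libraries were made from polyA-selected RNA, and the values are read counts per gene. Levels are given as CPM, counts scaled to the total of reads assigned to genes in each library with TMM factors, and were compared between libraries for one gene at a time.

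Yeast in fresh YPD ferments glucose to ethanol and represses the genes for respiration and for other carbon sources. As glucose runs down, low-affinity hexose transporters give way to high-affinity ones, the repression is relieved, stress genes under the general stress response come up, and at the diauxic shift the cells turn to respiring the ethanol they made. The step from 4 h to 6 h asked which genes moved in the late part of this growth course.

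The alpha-cell genes MFALPHA1 and STE3 were expressed in all 12 libraries (at least 958 and 254.5 CPM), while the a-cell genes MFA1 and MFA2 had at most 2.49 and 1.22 CPM. The loci URA3 and LEU2 had 0 counts and LYS2 at most 1 count in a library, and MET17, also called MET15, had at least 1177 counts and HIS3, a partial deletion in such strains, at least 70.5 CPM at 6 h and 54.9 CPM at 4 h. The alpha-cell genes, the absence of LYS2 and the presence of MET17 are those of the usual BY4742 genotype, whereas the methods list mating type a with his3, leu2, met15 and ura3 deletions. Libraries held 8377258 to 31908031 gene counts at 6 h and 6404650 to 22601624 at 4 h. Before the results, 2 libraries at 6 h have to be set apart. Over 4479 protein-coding genes without introns, ribosomal protein (RP) genes left out, the slope of log2 CPM against the log2 length of the gene was -0.07 and 0.19 in 6 h replicates 2 and 4, against 0.46 to 0.62 in the other 4 libraries at 6 h and 0.49 to 0.58 in the 6 at 4 h. The first pair is called flat and the other 10 libraries steep. The flat pair also carried the largest shares of counts on RP genes, 18.1% and 16.1%, against 9.49% to 12.2% in the steep 6 h libraries and 11.9% to 13.8% at 4 h. Over protein-coding genes, the fitted change from 4 h to 6 h and the gene length had a Spearman correlation of -0.41 with all 12 libraries and of 0.13 with the steep ones only. What set these libraries apart was not tested, and results that rest on them are given with and without them.

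Of 5963 genes tested, 35 were higher at 6 h (0.587% of the genes tested) and 10 were lower (0.168%), 45 in all (0.755%), by the quasi-likelihood test of edgeR at a Benjamini-Hochberg adjusted p under 0.05. At an unadjusted p under 0.05, 630 were higher (10.6%) and 267 lower (4.48%). DESeq2 called 149 genes as higher (2.51% of 5940) and 52 as lower (0.875%). Without the flat libraries, 47 genes were higher (0.786% of 5978) and 22 lower (0.368%), and these held 39 of the 45 genes called with all libraries. The sign of the change was the same in both fits for 45 of 45. All 6 libraries at 6 h lay outside the range of the 6 at 4 h for 36 of the 45; among all genes tested, 92 lay wholly above (1.54%) and 58 wholly below (0.973%). The number of calls turned on single libraries, and the values are of whole cultures, in which more RNA per cell and more cells with the RNA cannot be told apart. It was 8 higher and 6 lower genes without 4 h replicate 6, and 65 higher and 12 lower without 6 h replicate 6. The plot of the fitted changes shows where the flat libraries mattered: the genes that rose most with all libraries, HSP12, HXT7, HSP26 and MPC3, had smaller changes among the steep ones.

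**Figure D1:**
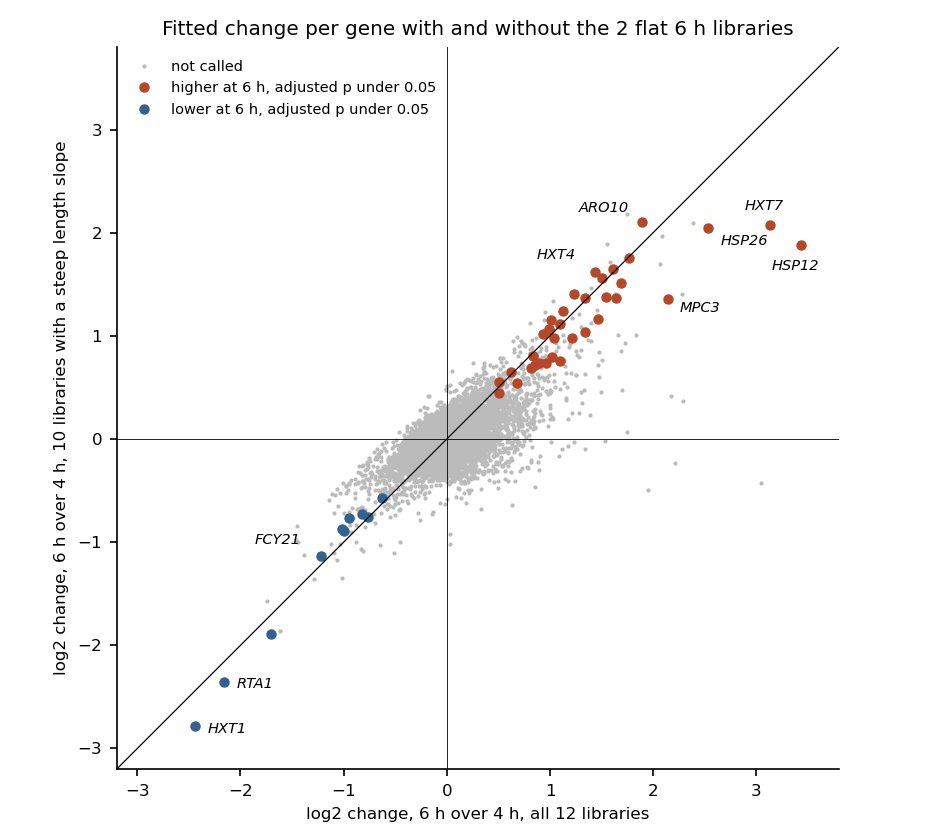
Log2 change from 4 h to 6 h per gene, fitted with all 12 libraries (x axis) and with the 10 steep libraries only (y axis); red points rose and blue points fell at an adjusted p under 0.05 with all libraries, grey points did not pass, and the diagonal marks equal values. All 45 called genes keep their sign; among them HXT1 and RTA1 lie lowest, and HSP12 and HXT7 lie farthest below the diagonal.

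Hexose transporter genes moved in both directions. HXT1, the low-affinity transporter used at high glucose, fell, and HXT4 and HXT7, transporters of higher affinity used at low glucose, rose. HXT1 (YHR094C, chrVIII:290913-292625, minus strand) had 66.05 to 280.9 CPM (median 174) at 6 h, against 483.4 to 1419 CPM (median 853) at 4 h. No library at 6 h reached the lowest one at 4 h, and the level was 5.42 times lower (log2 change -2.44, standard error 0.36, edgeR adjusted p = 0.00858; -2.79 among the steep libraries). HXT4 (YHR092C, chrVIII:287081-288811, minus strand), which lies close by on the same strand, had 3121 to 5456 CPM (median 4338) at 6 h, against 863 to 2349 CPM (median 1516) at 4 h. Here the 6 libraries at 6 h were all above those at 4 h, and the level was 2.71 times higher (log2 change 1.44, standard error 0.24, edgeR adjusted p = 0.0139). HXT1 and HXT4 passed the threshold in all 23 alternative fits.

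HXT7, a high-affinity transporter, had 42.4 to 701 CPM (median 97.1) at 6 h, against 11.6 to 32.3 CPM (median 21.5) at 4 h. Its log2 change was 3.13 (edgeR adjusted p = 0.0321) and 2.07 among the steep libraries. The flat replicate 2 held 701 CPM, and the other 5 libraries at 6 h held at most 126 CPM, still above every library at 4 h. HXT7 and HXT6 are near-identical, and reads that mapped to both were not counted, so their levels are uncertain. HXT6 had 11.99 to 104 CPM (median 28.5) at 6 h, against 8.20 to 11.99 CPM (median 9.29) at 4 h (log2 change 2.07, edgeR adjusted p = 0.0654, and 0.0335 among the steep libraries). The fitted changes of HXT3 and HXT2 were -0.47 (adjusted p = 0.198) and -0.76 (adjusted p = 0.447). HXT2 rested on 1 library: 4 h replicate 3 held 2885 CPM against 309 to 758 CPM in the other 5 at 4 h, and without it the change was 0.02. Of 14 hexose transporter genes tested out of 17 listed, 2 rose, 1 fell and 11 did not pass by edgeR, DESeq2 called 3 as higher and 1 as lower, with a median log2 change of 0.44, where the median over all genes tested was 0.01.

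Rgt1 represses hexose transporter genes when glucose is absent and is known to bind CGGANNA. The stretches that follow, from the R64 RefSeq genome and in the direction of the gene, show the match nearest to the annotated start of HXT1 (chrVIII:292838-292867) and of HXT4 (chrVIII:289089-289118), with the match in capitals (read on the other strand for HXT1).
HXT1: tttgatggcttTTATCCGacaagccaggaa
HXT4: ttaagaaacaaCGGAGGAaaactcaaattc
HXT1 held 4 matches and HXT4 held 2 in the 500 bases before the annotated start, searched on both strands. The letters are common, since 42.1% of 5636 such windows held at least 1, and 14 of 34 windows of protein-coding genes that rose and 7 of 10 of those that fell did. Such matches describe letters and not bound sites.

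Among the genes that phosphorylate hexoses, HXK1, the hexokinase that is repressed by glucose, rose 3.05-fold. It had 994 to 2795 CPM (median 2438) at 6 h, against 456 to 1160.0 CPM (median 581) at 4 h (log2 change 1.61, standard error 0.28, edgeR adjusted p = 0.0179). 6 h replicate 6, with 994 CPM, lay within the range of 4 h. HXK2, the hexokinase of growth on glucose, had 1575 to 2085 CPM (median 1702) at 6 h, against 1846 to 2631 CPM (median 2357) at 4 h (log2 change -0.38, adjusted p = 0.223), and glucokinase GLK1 a change of 0.72 (adjusted p = 0.449). An uncharacterised reading frame, YFR052C-A, that overlaps HXK1 by 143 bases on the same strand, was also called, with a log2 change of 1.76 (edgeR adjusted p = 0.0499). Whether this is a signal apart from HXK1 was not tested.

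Of the 15 genes listed for glucose sensing and repression, 1 rose and 14 did not pass. MTH1, which works with Rgt1 as a corepressor of HXT genes, had 280.7 to 466 CPM (median 324) at 6 h, against 119.7 to 233 CPM (median 178) at 4 h, with no overlap (log2 change 0.93, edgeR adjusted p = 0.034). MIG3, a relative of the glucose repressor Mig1, had a change of -0.84 with all libraries (adjusted p = 0.103) and was called among the steep ones (-1.06, adjusted p = 0.035). REG2, a regulatory subunit of the Glc7 phosphatase outside these lists, rose with a log2 change of 0.96, and of 0.73 among the steep libraries (edgeR adjusted p = 0.037 and 0.0401). GPG1, linked to the Gpa2 protein of glucose signalling, had 10.4 to 26.5 CPM (median 19.01) at 6 h, against 2.61 to 10.5 CPM (median 5.12) at 4 h (log2 change 1.69, adjusted p = 0.0219, and 0.0552 among the steep libraries).

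Glycolysis itself showed no gene past the threshold. By edgeR 0 of 14 were called, and DESeq2 called 1 as higher; at an unadjusted p under 0.05, 1 was higher and 1 lower, and the median log2 change was -0.06 (-0.22 among the steep libraries). Glyceraldehyde-3-phosphate dehydrogenase has 3 genes. TDH1, the one of stationary cells, had 1548 to 3415 CPM (median 2994) at 6 h, against 412 to 1837 CPM (median 931) at 4 h (log2 change 1.40, adjusted p = 0.0644). TDH2 and TDH3, used in growing cells and so alike that reads shared between them were not counted, had changes of -0.24 and -0.06 (adjusted p = 0.564 and 0.9). Of 13 genes of fermentation, among them pyruvate decarboxylases and alcohol dehydrogenases, edgeR called 0, with 1 higher at an unadjusted p under 0.05, and DESeq2 called 1. PDC1, the main pyruvate decarboxylase, and ALD4, a mitochondrial aldehyde dehydrogenase, had changes of -0.30 and 1.05 (adjusted p = 0.345 and 0.164). ADH1, the main enzyme that makes ethanol, had a change of 0.17 (adjusted p = 0.687), which turned to -0.18 among the steep libraries. ADH2, which oxidises ethanol and is repressed by glucose, had 1.03 to 11.8 CPM (median 5.18) at 6 h and 2.62 to 10.5 CPM (median 3.72) at 4 h. Its change was 0.39 (adjusted p = 0.704) and -0.02 among the steep libraries. ACT1, actin, had 1094 to 1715 CPM (median 1255) at 6 h and 1151 to 1367 CPM (median 1272) at 4 h (log2 change 0.09, and -0.08 among the steep libraries, adjusted p = 0.753 and 0.718).

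**Figure D2:**
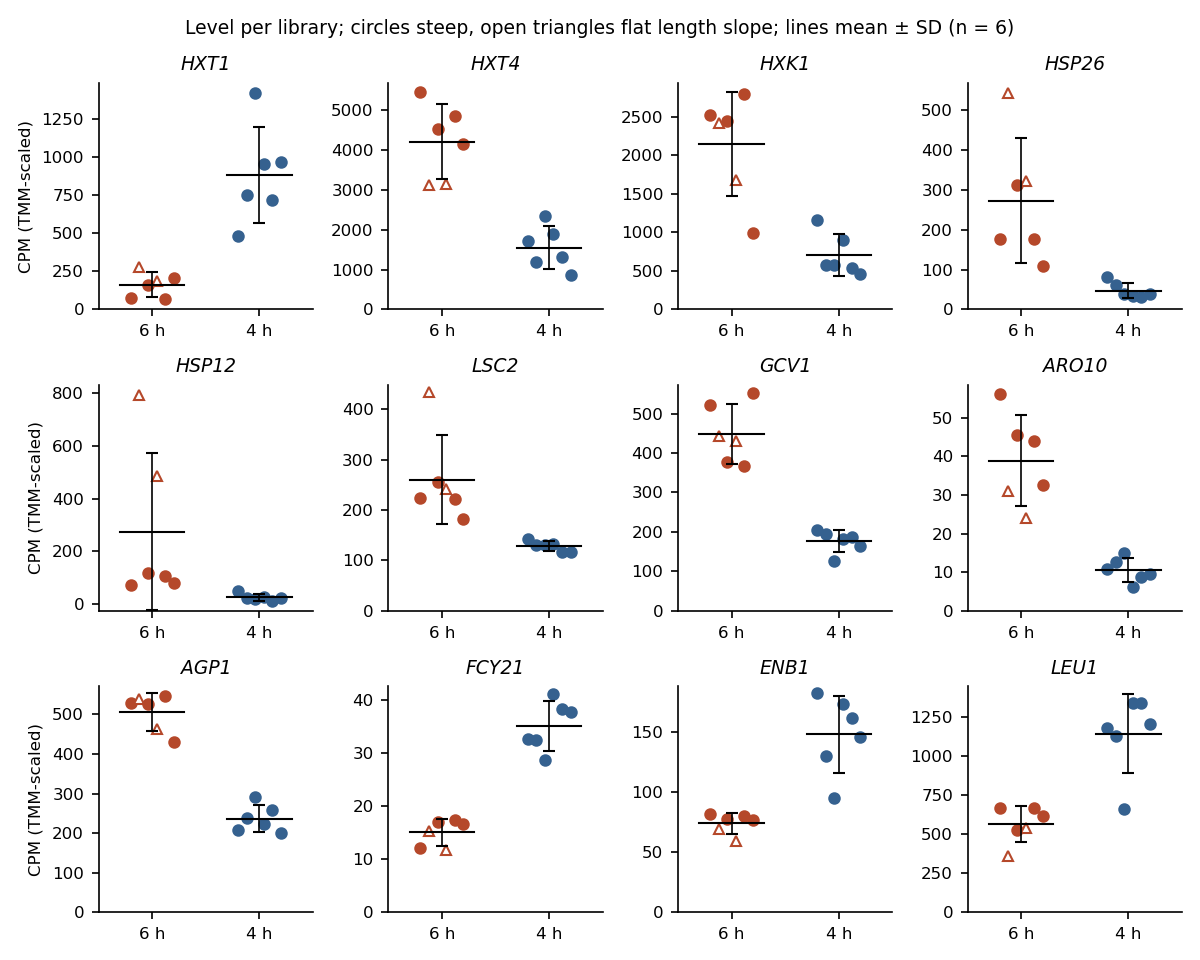
CPM (y axis, from 0 or from below the SD bar) of 12 genes in each library at 6 h (left, red) and 4 h (right, blue), replicates 1 to 6 drawn from left to right; circles are steep and open triangles flat libraries, and lines give the mean ± SD (n = 6). For 10 of the 12 genes the groups are separate, and at HXK1 and LEU1 the ranges of the groups overlap.

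Respiration genes rose in part. The electron transport chain passes electrons from NADH and succinate to oxygen, and ATP synthase uses the gradient it builds. LSC2, the beta subunit of succinyl-CoA ligase in the tricarboxylic acid cycle (YGR244C, chrVII:978036-979319, minus strand), had 182 to 433 CPM (median 234) at 6 h, against 116 to 142 CPM (median 130.0) at 4 h, with no overlap (log2 change 1.02, standard error 0.18, edgeR adjusted p = 0.0185; 0.80 among the steep libraries). CYT1, cytochrome c1, had 100.2 to 176 CPM (median 147) at 6 h, against 66.1 to 96.6 CPM (median 70.9) at 4 h (log2 change 0.89, edgeR adjusted p = 0.019). COR1, a core subunit of the same complex III, had a log2 change of 0.68 (adjusted p = 0.0232). Among the steep libraries the changes of CYT1 and COR1 were 0.74 and 0.54 (edgeR adjusted p = 0.0401 and 0.0287). The flat replicates 2 and 4 held the highest 6 h levels of both genes. In both genes every 6 h library was above every 4 h library. INH1, an inhibitor of ATP hydrolysis by the F1 ATPase, had 17.1 to 69.2 CPM (median 27.1) at 6 h, against 8.01 to 13.3 CPM (median 11.3) at 4 h. Its log2 change was 1.64 with all libraries and 1.36 among the steep ones (edgeR adjusted p = 0.0219 and 0.02), and the flat replicate 2 held 69.2 CPM. MPC3, a subunit of the mitochondrial pyruvate carrier used in respiration, had 83.0 to 592 CPM (median 183) at 6 h, against 47.2 to 79.6 CPM (median 52.2) at 4 h. Its log2 change was 2.14 (adjusted p = 0.0221) and 1.36 among the steep libraries, where the flat replicates 2 and 4 held 592 and 315 CPM and the steep libraries at 6 h at most 211 CPM. LSC2 and MPC3 are neighbours whose 3′ ends face each other across 259 bases. MBR1, linked to mitochondrial function, rose as well (log2 change 1.34, adjusted p = 0.0232, and 0.0525 among the steep libraries).

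Of 24 respiratory chain genes edgeR called 2 as higher with all libraries, 3 with the steep ones and 5 with the length slope as a covariate, and DESeq2 called 10; 22 of 24 had a fitted change above 0, with a median of 0.57 (0.46 among the steep libraries) beside 0.01 for all genes, and 19 were higher at an unadjusted p under 0.05. COX4 of cytochrome c oxidase had a change of 0.52 (adjusted p = 0.0554, and 0.0438 among the steep libraries). Of 14 ATP synthase genes edgeR called 1 as higher, with all libraries and with the steep ones, and 2 with the length slope, and DESeq2 called 5. ATP5 had a change of 0.46 (adjusted p = 0.075), all 14 had a change above 0, and the median was 0.40 (0.27 among the steep libraries). Of 16 tricarboxylic acid cycle genes edgeR called 1 and DESeq2 3 as higher, and 8 were higher at an unadjusted p under 0.05. Of these 16 genes 12 had a change above 0, with a median of 0.37 (0.26 among the steep libraries). The succinate dehydrogenase genes SDH1 and SDH3 missed the threshold at changes of 0.87 and 0.70 (adjusted p = 0.0987 and 0.0714). Of the 67 mitochondrial ribosomal protein genes edgeR called 0 with all libraries and DESeq2 called 7 as higher, while 67 of 67 had a change above 0 and 49 were higher at an unadjusted p under 0.05. Their median was 0.39, and 0.22 among the steep libraries, where 64 of 67 lay above 0 and 1, MRPL32, was called (0.49, adjusted p = 0.0407). With all libraries the changes of MRPL32 and MRPS17 were 0.68 and 0.62 (adjusted p = 0.0635 and 0.064). These genes share the libraries, so the counts of signs are descriptions. Over all genes tested, 3066 of 5963 had a change above 0.

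For carbon sources other than glucose, JEN1, the carrier for lactate and pyruvate, was called at a low level: 8.69 to 17.8 CPM (median 12.6) at 6 h, against 5.38 to 7.85 CPM (median 6.13) at 4 h, with no overlap (log2 change 1.01, edgeR adjusted p = 0.0365). Of 9 genes for carboxylate uptake and use, this was 1 that rose by edgeR, while DESeq2 called 4 as higher, 6 were higher and 1 lower at an unadjusted p under 0.05, and among the steep libraries 1 was higher and 1, ATO3, was lower; ATO2, a putative ammonium and acetate transporter, and CYB2, lactate dehydrogenase, had changes of 1.20 and 0.91 (adjusted p = 0.107 and 0.134). Of 14 genes of gluconeogenesis and the glyoxylate cycle, edgeR called 0 and DESeq2 4, 13 had a change above 0 and 7 were higher at an unadjusted p under 0.05. ACS1, acetyl-CoA synthetase, and ICL1, isocitrate lyase, had changes of 0.66 and 0.53 (adjusted p = 0.103 and 0.132). CAT8, the activator of these genes, was called among the steep libraries (1.33, adjusted p = 0.041) and not with all (1.03, adjusted p = 0.161); the flat pair held 22.3 and 24.2 CPM and the steep 6 h libraries 30.9 to 74.6 CPM. In fatty acid oxidation 0 of 18 passed by edgeR with all libraries, 1 (FAA2, named after its values were seen) was called as higher with the steep ones and with the length slope, and DESeq2 called 3; 7 were higher at an unadjusted p under 0.05, with changes of 1.39 for CRC1, the carnitine carrier, and 1.84 for POT1, the peroxisomal thiolase (adjusted p = 0.0609 and 0.108). SUC2, invertase, had a change of 0.48 (adjusted p = 0.222), and 0 of the 13 genes for galactose, maltose and sucrose use were called by edgeR or DESeq2, with 4 higher and 1 lower at an unadjusted p under 0.05.

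Among stress genes, the small heat shock genes HSP26 and HSP12 rose most. HSP26, a chaperone that binds unfolded protein (YBR072W, chrII:382030-382674, plus strand), had 108 to 543 CPM (median 246) at 6 h, against 31.7 to 80.5 CPM (median 38.2) at 4 h. No 6 h library reached down into the 4 h range, and the level was 5.79 times higher (log2 change 2.53, standard error 0.38, edgeR adjusted p = 0.00858; 2.04 among the steep libraries). HSP12, a small protein of membranes under stress, had 70.9 to 791 CPM (median 111) at 6 h, against 11.002 to 48.9 CPM (median 23.2) at 4 h (log2 change 3.43, standard error 0.64, edgeR adjusted p = 0.0223). The flat replicates 2 and 4 held 791 and 483.8 CPM, and the steep libraries at 6 h held 70.9 to 117 CPM, where the change was 1.88 (adjusted p = 0.0212). HSP12 is a short gene of 330 bases, and with the length slope as a covariate its change was 2.08 (edgeR adjusted p = 0.00486). The part of gene length in its change was not tested.

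Msn2 and Msn4, the activators of the general stress response, bind the stress response element AGGGG. The stretches nearest to the start codon of HSP26 (chrII:381692-381721) and HSP12 (chrVI:107054-107083), both with the element on the opposite strand and in capitals, were as follows.
HSP26: ggttattccctcCCCCTtatgcgtccaaaa
HSP12: gttccggtcgtcCCCCTcttgatctgaaag
HSP26 held 3 matches and HSP12 held 5 in the 500 bases before the start. Of the windows of 34 genes that rose 20 held at least 1, as did 5 of 10 windows of genes that fell and 34.4% of all 5636 windows. Of the 7 motifs searched, CCAAT, for Hap2-Hap3-Hap4-Hap5, is not shown as a stretch. It was held by 17 of 34 windows of genes that rose, 4 of 10 of genes that fell and 62.7% of all 5636.

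Of 26 heat shock and chaperone genes tested, 2 rose and 24 did not pass by edgeR, DESeq2 called 4 as higher and 1 as lower, 7 were higher and 2 lower at an unadjusted p under 0.05, and the median was 0.19. MDJ1, a mitochondrial Hsp40, had a change of 0.94 (adjusted p = 0.103), HSC82, an Hsp90, one of -0.47 (adjusted p = 0.152) and HSP30, a plasma membrane protein, one of -1.61 (adjusted p = 0.331). HSP30 had 22.4 to 81.6 CPM (median 41.3) at 6 h and 11.5 to 454 CPM (median 51.2) at 4 h, where 4 h replicates 1 and 4 held 454 and 274 CPM. Of 27 stress regulators and markers edgeR called 0 and DESeq2 1, 9 were higher at an unadjusted p under 0.05, 23 had a change above 0 and the median was 0.45. SPG4 and GRE1 had the lowest adjusted p values of that list at changes of 2.18 and 1.14 (adjusted p = 0.196 and 0.201), and among the steep libraries these were 0.42 and 0.55. Of 16 genes of oxidative stress defence edgeR called 0 and DESeq2 1, 3 were higher at an unadjusted p under 0.05, and the median was 0.21 with all libraries and -0.06 with the steep ones. PRX1, a mitochondrial peroxiredoxin, had a change of 1.04 (adjusted p = 0.107). Of 18 genes of trehalose and glycogen edgeR called 0 and DESeq2 2, with 2 higher at an unadjusted p under 0.05. GAC1 and GDB1, which act in glycogen storage and breakdown, had changes of 1.55 and 1.08 (adjusted p = 0.149 and 0.148). GUT2, glycerol-3-phosphate dehydrogenase of mitochondria, had a change of 0.73 (adjusted p = 0.0755), and of 11 glycerol genes edgeR called 0 and DESeq2 2, with 5 higher at an unadjusted p under 0.05.

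The genes with the lowest adjusted p of the step, GCV1 and AGP1, act in amino acid metabolism and uptake. GCV1, the T subunit of the mitochondrial glycine decarboxylase complex, which splits glycine into a one-carbon unit, ammonia and carbon dioxide (YDR019C, chrIV:484163-485365, minus strand), had 367 to 552 CPM (median 437) at 6 h, against 127 to 205 CPM (median 185) at 4 h. The lowest library at 6 h held 367 CPM and the highest at 4 h 205 CPM, and the level was 2.54 times higher (log2 change 1.34, standard error 0.15, edgeR adjusted p = 0.00154). GCV2, the P subunit, had 368 to 641 CPM (median 435) at 6 h, against 120.4 to 252 CPM (median 212) at 4 h (log2 change 1.24, edgeR adjusted p = 0.0139). SHM2, cytosolic serine hydroxymethyltransferase, which joins glycine and serine, had 2624 to 3874 CPM (median 3399.7) at 6 h, against 1239 to 2359.5 CPM (median 1831) at 4 h (log2 change 0.84, adjusted p = 0.03). In these 3 genes the groups did not overlap. GCV3, the H subunit, named after its values were seen, had a change of 1.47 with all libraries (adjusted p = 0.0755) and of 0.72 with the steep ones (adjusted p = 0.0335).

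Gcn4 and Bas1, activators of amino acid and glycine genes, bind TGACTC. The stretches nearest to the start codon of GCV1 (chrIV:485491-485520) and of GCV2 (chrXIII:637249-637278, on the opposite strand) show it in capitals, and the GCV2 stretch holds another match, on the strand of the gene, at its 5′ end.
GCV1: gctcaggagcccTGACTCgtgttgcctcga
GCV2: TGACTCtcagagGAGTCAtcgaagtcagca
GCV1 held 1 match, GCV2 held 4 and SHM2 held 4 in 500 bases, where 12.8% of 5636 windows held any. Of all windows of called genes, 7 of 34 that rose and 3 of 10 that fell held one.

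AGP1, a permease for many amino acids (YCL025C, chrIII:76018-77919, minus strand), had 429.7 to 547 CPM (median 528) at 6 h, against 200.5 to 291 CPM (median 231) at 4 h. The groups were separate, with a level 2.14 times higher (log2 change 1.1, standard error 0.13, edgeR adjusted p = 0.00154), and the flat libraries lay within the steep ones. Of 27 genes of amino acid and nitrogen uptake AGP1 was 1 that rose and 26 did not pass by edgeR, while DESeq2 called 3 as higher and 2 as lower. The other genes of the list lay on both sides of 0. GAP1, the general amino acid permease, had a change of 0.45 (adjusted p = 0.132), OPT2, an oligopeptide transporter, one of 1.74 (adjusted p = 0.09, and 0.00228 among the steep libraries) and MMP1, the S-methylmethionine permease, one of -0.69 (adjusted p = 0.0755).

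ARO9 and ARO10 degrade aromatic amino acids: Aro9 removes the amino group and Aro10 the carboxyl group, on the way to fusel alcohols. ARO10 had 24.2 to 56.2 CPM (median 38.3) at 6 h, against 6.27 to 15.1 CPM (median 10.2) at 4 h, a 3.71-fold rise without overlap (log2 change 1.89, standard error 0.24, edgeR adjusted p = 0.0028). ARO9 had 55.4 to 86.4 CPM (median 60.6) at 6 h, against 21.2 to 38.9 CPM (median 29.6) at 4 h, again without overlap (log2 change 1.13, adjusted p = 0.0093). Among the steep libraries the changes were 2.10 and 1.24. BNA2, which opens the ring of tryptophan in the synthesis of NAD and overlaps another reading frame by 17 bases on the same strand, had 18.04 to 62.9 CPM (median 33.3) at 6 h, against 9.36 to 18.4 CPM (median 12.7) at 4 h. Its log2 change was 1.46 with all libraries and 1.17 among the steep ones (edgeR adjusted p = 0.0185 and 0.0335). EEB1, which makes ethyl esters of medium-chain fatty acids, had 122 to 207 CPM (median 147) at 6 h, against 64.7 to 95.6 CPM (median 75.1) at 4 h (log2 change 0.99, adjusted p = 0.0137).

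Aro80, the activator of ARO9 and ARO10 in the presence of aromatic amino acids, is known for paired CCG triplets, here searched as CCG, any 7 bases and CCG. The match nearest to the start codon of ARO9 (chrVIII:375556-375585) and of ARO10 (chrIV:1233953-1233982, on the opposite strand) is in capitals.
ARO9: gagatttgCCGCGGATAACCGaaccatcat
ARO10: gataccttCGGTAAGTGTCGGtatgtaata
ARO9 held 5 matches and ARO10 held 4, some of which overlap, while 5.45% of 5636 windows held 1 or more, as did 6 of 34 windows of genes that rose and 2 of 10 of genes that fell.

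LEU1, isopropylmalate isomerase of leucine synthesis (YGL009C, chrVII:476313-478652, minus strand), fell. It had 362 to 667 CPM (median 579) at 6 h, against 658 to 1340.5 CPM (median 1194) at 4 h (log2 change -1.02, standard error 0.19, edgeR adjusted p = 0.0232). 4 h replicate 3, with 658 CPM, lay within the 6 h range and the other 5 libraries at 4 h lay above it. The strain carries a deletion of LEU2, the next enzyme of that pathway. BAT1, a branched-chain aminotransferase, had a change of -0.44 (adjusted p = 0.192). The promoter of LEU1 holds the letters of the Leu3 site, searched as CCGG, any 2 bases and CCGG, at chrVII:478850-478879, shown in capitals, as 0.266% of 5636 windows do.
LEU1: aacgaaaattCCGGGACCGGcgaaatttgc
Over the whole list of amino acid synthesis, 3 of 67 genes rose, 1 fell and 63 did not pass by edgeR, DESeq2 called 5 as higher and 1 as lower, with a median of 0.14.

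Among the genes that fell, FCY21 had the lowest adjusted p. FCY21, a relative of the purine-cytosine permease Fcy2 (YER060W, chrV:274567-276153, plus strand), had 11.7 to 17.5 CPM (median 16.01) at 6 h, against 28.6 to 41.2 CPM (median 35.1) at 4 h. The highest library at 6 h held 17.5 CPM and the lowest at 4 h 28.6 CPM, with a level 2.33 times lower (log2 change -1.22, standard error 0.15, edgeR adjusted p = 0.00174). It has a close relative, FCY22, so reads shared with it were not counted. Of 30 genes of purine and pyrimidine synthesis and uptake, FCY21 was 1 that fell and 0 rose. RTA1, a membrane protein linked to resistance to 7-aminocholesterol, stood at 0.175 to 0.390 CPM (median 0.295) at 6 h, against 0.968 to 1.98 CPM (median 1.20) at 4 h, a level 4.46 times lower (edgeR adjusted p = 0.00858). The groups did not overlap, but the value rests on few reads, 2 to 9 in a library at 6 h and 8 to 22 in one at 4 h, and its adjusted p ran from 1.33e-05 to 0.0976 over the alternatives.

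Iron uptake fell in part. ENB1 and ARN2 carry siderophores, iron chelates that microbes release, into the cell. ENB1, for enterobactin (YOL158C, chrXV:19491-21311, minus strand), had 59.0 to 81.8 CPM (median 77.6) at 6 h, against 95.3 to 182 CPM (median 154) at 4 h (log2 change -1.0, standard error 0.15, edgeR adjusted p = 0.0105). ARN2 had 62.2 to 87.5 CPM (median 84.8) at 6 h, against 114 to 128 CPM (median 126) at 4 h (log2 change -0.62, adjusted p = 0.0159). In both genes every library at 6 h was below every library at 4 h. SIT1, another siderophore carrier, had 39.6 to 79.3 CPM (median 67.1) at 6 h, against 87.0 to 120.98 CPM (median 106) at 4 h, and was called among the steep libraries, with the length slope and by DESeq2, but not by edgeR with all libraries (-0.53, adjusted p = 0.0335; with all -0.76, adjusted p = 0.0654). Of 25 genes of iron uptake and use, edgeR called 2 as lower and 0 as higher with all libraries and 3 as lower with the steep ones or with the length slope, and DESeq2 called 5 as lower and 0 as higher, with a median of -0.17 (-0.04 among the steep libraries). HEM13 of haem synthesis and YHB1, the flavohaemoglobin, both named after their values were seen, were lower among the steep libraries (-0.68 and -0.66, adjusted p = 0.0237 and 0.0335) and not called with all (-0.45 and -0.82, adjusted p = 0.265 and 0.0644).

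The iron regulators Aft1 and Aft2 bind a core that includes TGCACCC. It is shown in capitals for ENB1 (chrXV:21430-21459) and, on the opposite strand, for ARN2 (chrVIII:10642-10671).
ENB1: cggcttacaatTGCACCCctctgtggcttt
ARN2: aatcagaaaatGGGTGCAgttcttagttca
ENB1 held 2 matches and ARN2 held 1; 2.32% of 5636 windows held any, as did 0 of 34 windows of genes that rose and these 2 of 10 of genes that fell.

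The other genes called lower were LAF1, MKC7, YGL039W and YOL014W. YGL039W, an oxidoreductase, had 30.6 to 45.0 CPM (median 39.1) at 6 h, against 54.1 to 76.2 CPM (median 69.6) at 4 h, and passed in all 23 alternatives (log2 change -0.83, edgeR adjusted p = 0.012). MKC7, an aspartyl protease of the cell surface, had a change of -0.94, LAF1 one of -0.76 and the uncharacterised YOL014W one of -1.70 (adjusted p = 0.0219, 0.0438 and 0.014). The other genes called higher lay outside the lists. MRK1, a glycogen synthase kinase 3 homologue, PRR2, a protein kinase, and CSR2, an adaptor of the ubiquitin ligase Rsp5, had changes of 1.5, 1.55 and 0.99 (adjusted p = 0.0221, 0.0159 and 0.0185). ECM4, a glutathione transferase, NQM1, a transaldolase, OCH1, a mannosyltransferase of the Golgi, and ADA2, a subunit of the SAGA complex, had changes of 1.04, 1.21, 0.50 and 0.51. ICY1, FDO1, YIL014C-A and YMR090W had changes of 0.85, 0.63, 0.82 and 1.1. Of these 11 genes, NQM1, YIL014C-A and YMR090W missed the threshold among the steep libraries (adjusted p = 0.0935, 0.06 and 0.0835), as did LAF1 among those that fell (0.06).

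**Figure D3:**
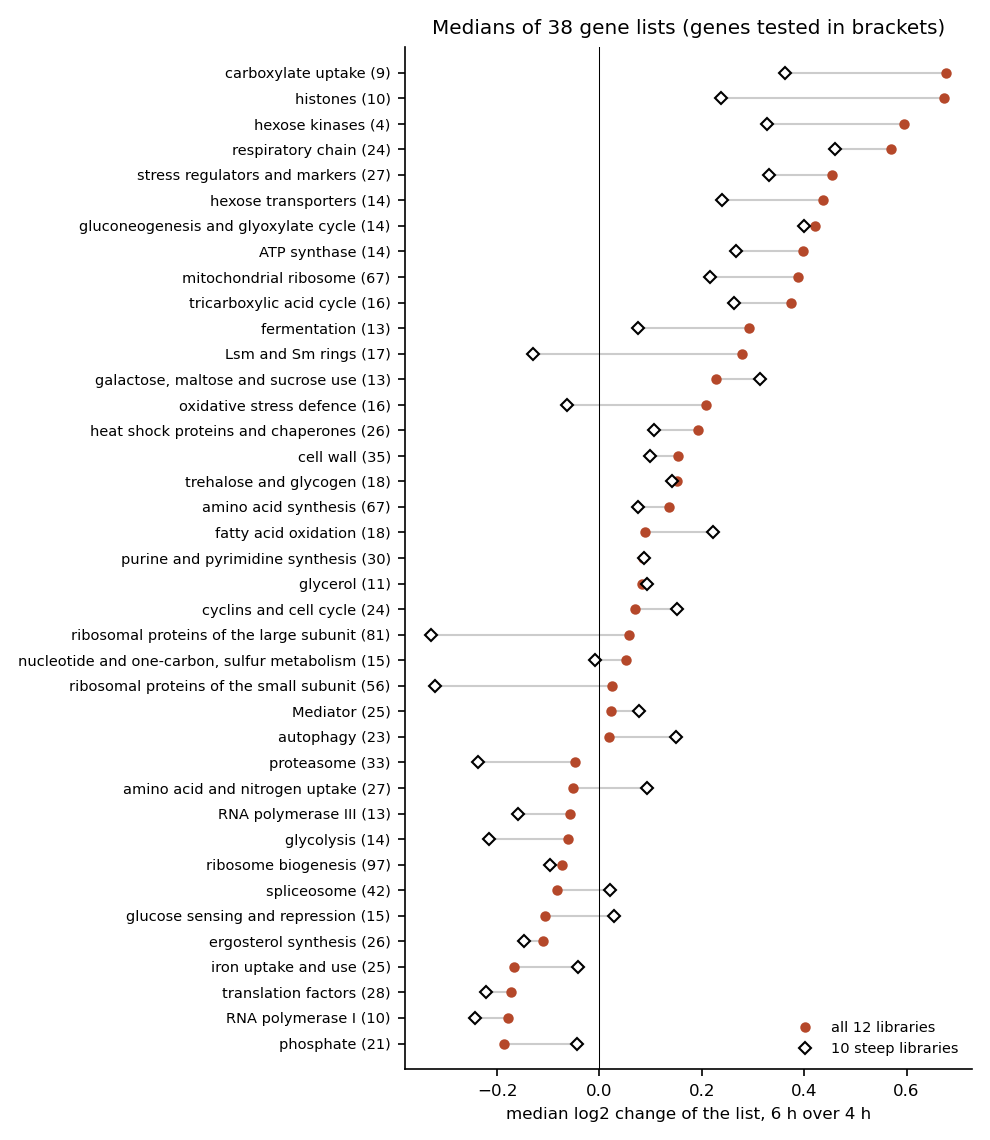
Median log2 change from 4 h to 6 h (x axis) of 39 gene lists (y axis, genes tested in brackets), with all 12 libraries (red circles) and with the 10 steep ones (open diamonds). Carboxylate uptake, histones and hexose kinases have the highest medians with all libraries, and the RP lists move from about 0 to near -0.3 when the flat libraries are left out.

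RP genes had no member past the threshold in the step. Of 81 large-subunit genes and 56 small-subunit genes edgeR called 0 with all 12 libraries and 0 with the 10 steep ones, and DESeq2 called 0. With all libraries 48 of 81 and 29 of 56 had a change above 0, at medians of 0.06 and 0.02, and at an unadjusted p under 0.05 the large subunit had 1 higher and 2 lower genes and the small subunit 0 higher and 1 lower. Among the steep libraries the direction turned: 2 of 81 and 1 of 56 had a change above 0, at medians of -0.33 and -0.32. RPS6B and RPL1A had the lowest adjusted p of their lists. RPS6B had 482.7 to 759 CPM (median 658) at 6 h, against 746 to 929.8 CPM (median 886) at 4 h (log2 change -0.42, adjusted p = 0.188), and RPL1A had 385 to 629 CPM (median 546) at 6 h, against 575 to 746 CPM (median 686) at 4 h (log2 change -0.38, adjusted p = 0.258). RP genes are short, and many come in pairs of similar copies whose shared reads were not counted.

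The other lists of growth and gene expression had 0 called genes by edgeR with all libraries. With the steep ones it called 1 ergosterol gene (ERG2) as lower and 1 cell wall gene (GSC2) as higher, and with the length slope GSC2 as higher and 1 proteasome gene (PRE8) and 1 phosphate gene (PHO3) as lower; ERG2, GSC2 and PRE8 are named after their values were seen. Over all genes tested, 10.6% were higher and 4.48% lower at an unadjusted p under 0.05, which is the background for the counts that follow. Of 97 ribosome biogenesis genes, with 0 at an unadjusted p under 0.05 and 0 by DESeq2, 61 had a change below 0 and 81 among the steep libraries, with medians of -0.07 and -0.10. Of 28 translation factors 22 lay below 0, and 27 among the steep libraries, with 2 lower at an unadjusted p under 0.05 and 0 by DESeq2. Of 33 proteasome genes 20 lay below 0, and 32 among the steep libraries; 5 were lower at an unadjusted p under 0.05 and 2 by DESeq2, with RPN9 at -0.50 (adjusted p = 0.121). Of 26 ergosterol genes 23 lay below 0, 7 of them at an unadjusted p under 0.05 and 1 by DESeq2, with MVD1 at -0.41 (adjusted p = 0.162), and of 21 phosphate genes 16, 3 at an unadjusted p under 0.05 and 1 by DESeq2, with PHO3, an acid phosphatase, at -0.64 (adjusted p = 0.0755). The 10 histone genes all lay above 0, 9 of them at an unadjusted p under 0.05 and 1 by DESeq2. Their median of 0.67 was 0.24 among the steep libraries, and HHO1, the linker histone, had a change of 0.63 (adjusted p = 0.125). Among 35 cell wall genes 5 were higher and 3 lower at an unadjusted p under 0.05 and DESeq2 called 1, with SED1 at 0.55 (adjusted p = 0.137). Among 24 cell cycle genes 0 were higher and 1 lower at an unadjusted p under 0.05 and DESeq2 called 0, with CLB2, a mitotic cyclin, at -0.56 (adjusted p = 0.298). The 23 autophagy genes had 2 higher and 0 lower at an unadjusted p under 0.05, the 15 genes of one-carbon and sulfur metabolism had 0 higher and 2 lower, and the 10 and 13 genes of RNA polymerases I and III had 0; DESeq2 called the 2 of one-carbon and sulfur metabolism and 0 of the others.

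Mediator, the coactivator of RNA polymerase II, and the RNA-binding Lsm and Sm rings had no gene past the threshold. Of 25 Mediator genes edgeR and DESeq2 called 0, and 4 were higher at an unadjusted p under 0.05, beside 10.6% of all genes tested. Of the 25 genes 14 had a change above 0 and the median was 0.02. SOH1 had a change of 0.73 (adjusted p = 0.192). Of 17 genes of the Lsm and Sm rings both tools called 0, 1 was higher at an unadjusted p under 0.05, and the median of 0.28 turned to -0.13 among the steep libraries. LSM3, a subunit of both Lsm rings, had 19.1 to 257 CPM (median 34.4) at 6 h, against 20.2 to 35.6 CPM (median 27.7) at 4 h, and the flat replicates 2 and 4 held 257 and 123 CPM where the steep libraries at 6 h held 19.1 to 40.0 CPM. Its log2 change was 1.53 with all libraries (adjusted p = 0.242) and -0.02 with the steep ones. Of 42 spliceosome genes both tools called 0, with 3 higher and 1 lower at an unadjusted p under 0.05.

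Splicing was measured as a splice ratio, 1 minus the intron reads per base over the exon reads per base, so that 1 means no intron reads. Of 246 genes with an intron of at least 25 bp and a mean of at least 75 counts, 0 differed between 6 h and 4 h at an adjusted p under 0.05 (two-sided exact permutation test with 924 arrangements of the library labels, Benjamini-Hochberg). The smallest p these allow is 0.00216, and 0 genes reached it. At that p 1 gene alone would have an adjusted p of 0.532, so the count of 0 says little. At an unadjusted p under 0.05, 3 genes had a higher ratio (1.22% of 246; RPS9A, GCR1 and NCE101) and 0 a lower one (0%). Among the steep libraries RPS9A and GCR1 were higher (0.813%) and 5 genes lower (2.03%; RPL14B, RPL33B, RPP1B, RPS23A and ARP9), all named after their values were seen. RPS9A had a splice ratio of 0.790 ± 0.103 at 6 h and 0.618 ± 0.0663 at 4 h (SD, n = 6 each; exact permutation p = 0.00866, adjusted p = 1). GCR1, a regulator of glycolytic genes with an intron of 751 bp, had 0.409 ± 0.306 at 6 h and 0.173 ± 0.0212 at 4 h (SD, n = 6 each; exact permutation p = 0.013, adjusted p = 1). In the flat replicates 2 and 4 its ratio was 0.966 and 0.562, and at most 0.282 in the steep libraries at 6 h.

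The mean splice ratio over 87 RP genes was 0.937 ± 0.0332 at 6 h and 0.934 ± 0.0260 at 4 h (SD, n = 6 libraries each). The flat replicates 2 and 4 held the highest means, 0.981 and 0.966, the steep libraries at 6 h ranged from 0.888 to 0.935, and the libraries at 4 h from 0.885 to 0.953. With all libraries the mean ratio of 48 RP genes was lower at 6 h and that of 39 was higher, at a median difference of -0.00098. Among the steep libraries 83 were lower and 4 higher, at a median difference of -0.0149. Over the 159 other intron genes the mean was 0.895 ± 0.0313 at 6 h and 0.878 ± 0.0236 at 4 h, with 106 genes higher and 48 lower at 6 h. Among the steep libraries 57 of these were higher and 96 lower. Leaving out the flat libraries thus turned the majority among the other genes and left it lower among RP genes.

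**Figure D4:**
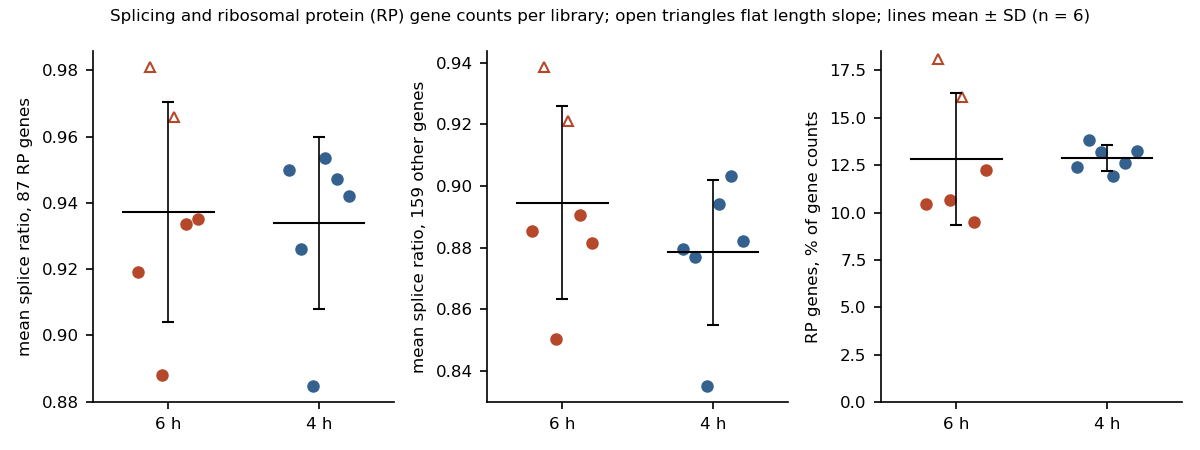
Mean splice ratio of 87 RP genes (left) and of 159 other intron genes (middle), axes not from 0, and the percentage of gene counts on RP genes (right), in each library at 6 h (red) and at 4 h (blue); open triangles mark flat libraries, and lines give the mean ± SD (n = 6). In all 3 panels both flat libraries lie above the 4 steep ones at 6 h.

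Libraries at 6 h were spread more widely than those at 4 h. The median SD of log2 CPM over genes was 0.396 at 6 h, 0.211 over the 4 steep libraries at 6 h and 0.203 at 4 h. The first principal component took 53.8% of the variance, with the flat replicates 2 and 4 at 63.8 and 27.7 and the other 10 libraries below 0. Within the steep 6 h libraries, replicate 6 lay nearest to 4 h in several glucose-repressed genes, with 994 CPM of HXK1 and 108 CPM of HSP26 where the other 5 libraries at 6 h held at least 1681 and 176 CPM. In LSC2 and COR1 too it was the lowest of the 6.

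The step before, 4 h against 2 h, shares the 4 h libraries with this one and is set beside it only. In one fit of all 42 libraries over the same 5963 genes, 179 genes were higher at 6 h than at 4 h (3% of 5963) and 61 lower (1.02%), while 198 were higher at 4 h than at 2 h (3.32%) and 98 lower (1.64%). Flat libraries occurred at other times too, 1 of 6 at 2 h and 7 of 24 at 0 h. Fitted alone on its own 12 libraries, the step before had 118 higher and 34 lower genes of 5940. With its steep libraries only it had 259 higher and 97 lower of 5973. A direct test of the difference between the last step and the step before called 0 of 6023 genes (0%) in either direction by edgeR, with 353 at an unadjusted p under 0.05, so no gene was shown to move more in one step than in the other. The values side by side were as follows. HXT4 had a log2 change of 1.45 in the last step and 1.84 in the step before, HXK1 1.61 and 2.13, and HSP26 2.54 and 2.03, all called in both. HXT1 changed by -2.43 and -0.96, and GCV1 by 1.35 and 1.17, also called in both. AGP1 changed by 1.1 in the last step and 0.14 in the step before, ENB1 by -1.0 and 0.14, and LEU1 by -1.02 and -0.11, called in the last step only. For AGP1, ENB1 and LEU1 the test of the difference between the steps gave adjusted p = 0.685, 0.510 and 0.685.

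**Figure D5:**
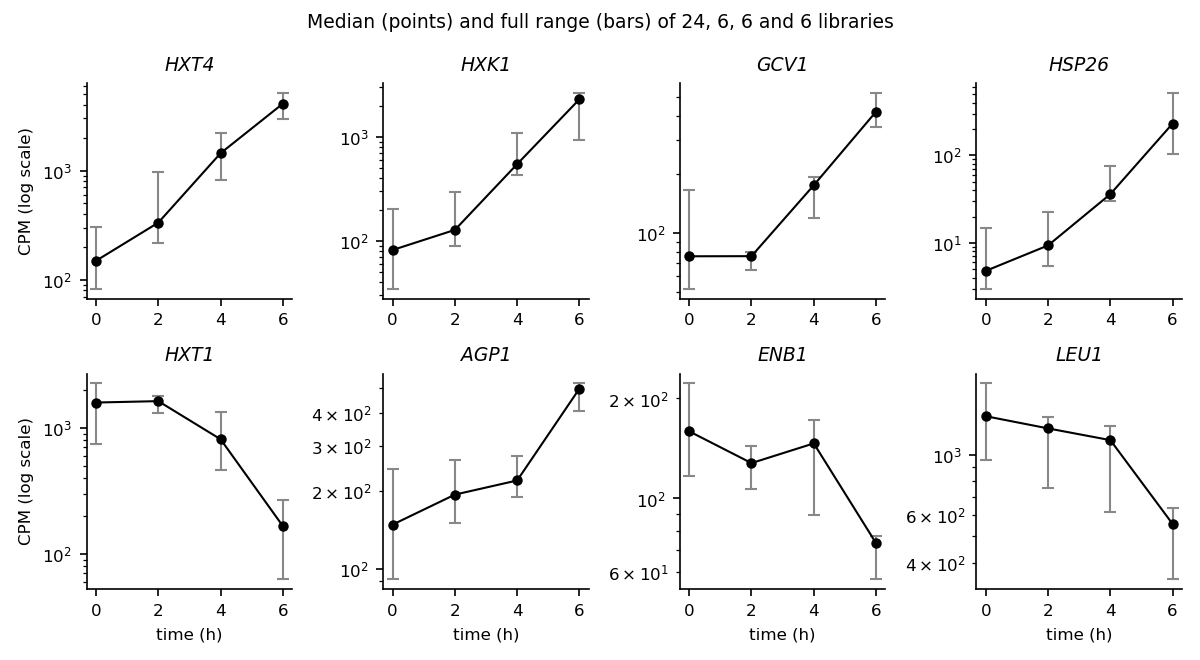
CPM (y axis, log scale) against time in hours (x axis) for 8 genes called in the last step; points are medians and bars the full range of 24 libraries at 0 h and 6 each at 2, 4 and 6 h. All 8 genes have their 6 h medians outside the range of the 4 h libraries. Flat libraries are included, 7 at 0 h, 1 at 2 h and 2 at 6 h. The TMM factors here were computed over all 42 libraries, so the CPM differ somewhat from those of the 12 libraries in the text.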

How the data were processed

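The 12 libraries at 6 h and 4 h were compared gene by gene, and the other 30 of 42 were used only for the length slope, the step before and 1 alternative fit. The authors used STAR for alignment; per the file headers featureCounts 2.0.3 then assigned reads, by strand, to genes and to exons of Ensembl R64-1-1, release 106. The deposited values are raw counts of reads, not read pairs, with duplicates kept and reads of several places or genes left out. The methods name a ComBat-seq batch adjustment that the file headers do not show, and the labels give no batch.

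Genes passing edgeR's filterByExpr were tested with edgeR 4.0.16 (R 4.3.3), TMM scaling and the quasi-likelihood test without pairing. Alternatives used library totals, other filters, exon counts, the length slope as a covariate, steep libraries only, a replicate block, all 42 libraries, DESeq2 1.42.0 and each library left out. The scripts were tested on simulated data. Intron reads are gene counts minus exon counts. Symbols matched for 6047 genes, 6038 with the same coordinates in RefSeq R64. Pairs of one group differed by a chi-square per degree of freedom of at least 14.6, so no library was a duplicate. Depth was 6404650 to 31908031 counts a library and limits genes of few reads. Over all genes, libraries of one group differed by more than counting noise.

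Members and lists were chosen with earlier results of these data known. Named genes were drawn from the 10 largest rises and falls among called genes with the same sign in steep libraries and in 5 of 6 same-numbered pairs, the 3 lowest adjusted p per list and direction, and 13 fixed genes of glucose use and controls; the rest of the 45 called genes were added after their values were seen.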

Additional observations from a re-analysis of the deposited data

Results flagged for a closer look

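In 18 of 200 group tests over the 100 named genes, 1 library lay so far from the other 5 of its group that its gap passed Dixon's critical value. Chance flags about 1 in 20 groups, and no cause was tested. At 6 h, the flat replicate 2 was far above the rest in 7 genes. It held 433 CPM of LSC2 (182 to 256 CPM in the rest), 701 CPM of HXT7 (42.4 to 126 CPM), 49.6 CPM of REG2, 25.04 CPM of YIL014C-A, 18.9 CPM of SPG4, 17.5 CPM of GRE1 and 209 CPM of HEM13. In the other libraries at 6 h, replicate 6 was low in ECM4 at 27.6 CPM (44.7 to 51.3 CPM in the rest), replicate 5 was high in MRK1 at 92.8 CPM and in GDB1 at 459 CPM, and replicate 3 was high in HSC82 at 1590.0 CPM. At 4 h, replicate 1 was high in MPC3 at 79.6 CPM (47.2 to 54.2 CPM in the rest). Replicate 3 at 4 h stood apart in 6 genes. It was high in HXT2 at 2885 CPM (309 to 758 CPM in the rest), in MMP1 at 50.4 CPM, in ICL1 at 115 CPM and in ADH2 at 10.5 CPM, and low in LEU1 at 658 CPM and in MVD1 at 146 CPM.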

How the results depend on the processing

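All 45 called genes kept their sign in every alternative that gave a value, and 6 passed the threshold in all 23: AGP1, FCY21, GCV1, HXT1, HXT4 and YGL039W. ARO10, HSP26, ARO9 and ECM4 passed in 22 and had no value in the remaining alternative. At the other end YMR090W passed in 5 of the 23, YIL014C-A in 6, FDO1, LAF1 and NQM1 in 8, and JEN1 and ADA2 in 10. Of the 45 called genes, 14 passed in every fit that left out 1 library. The number of calls moved. With the length slope as a covariate 57 genes were higher and 24 lower, with steep libraries only 47 and 22, with all 42 libraries in the fit and in its low-count filter (6179 genes tested) 204 and 54, with DESeq2 149 and 52, and with at least 75 counts in every one of the 42 libraries 15 and 7. Leaving out one library at a time gave 8 to 65 higher and 6 to 14 lower genes; the higher genes fell to 10, 11 and 8 without 4 h replicates 2, 5 and 6 and to 20 and 23 without 4 h replicate 4 and 6 h replicate 4, and the lower ones to 6 without 4 h replicate 2 or 6.

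The labels do not say whether same-numbered libraries at 6 h and 4 h shared a culture, although the submitters gave both libraries of each such pair the same number of their own as well. The main test had no pairing, and the values did not bear one out in every pair: same-numbered libraries at 6 h and 4 h had correlations of -0.07, 0.19, 0.55, -0.12, 0.22 and 0.51 over 5258 genes, and 3 of 6 correlated best with their own number. With a replicate block 17 genes were higher and 5 lower, and 21 of the 45 called genes passed; the other 24, at adjusted p = 0.0567 to 0.133, were ADA2, ARN2, COR1, CSR2, CYT1, FDO1, GPG1, HSP12, JEN1, LAF1, LEU1, MBR1, MPC3, MRK1, NQM1, OCH1, PRR2, REG2, RTA1, SHM2, YFR052C-A, YIL014C-A, YMR090W and YOL014W. With the block and the length slope 28 genes were higher and 16 lower, and with the block over pairs of steep libraries 19 and 4.

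For genes that were not called, the sign turned as follows. In the order steep libraries only, length slope, block with length slope, and block over pairs of steep libraries, ADH1 had -0.18, -0.11, -0.14 and -0.17, ADH2 -0.0207, -0.143, -0.303 and -0.357, and ACT1 -0.0821, -0.0563, -0.0521 and -0.0620. LSM3 had -0.0194 with steep libraries only and -0.0716 with the block over their pairs. Leaving out one library at a time, HXT2 ranged from -0.947 to 0.0200, above 0 without 4 h replicate 3, and TDH3 from -0.227 to 0.0150, above 0 without 6 h replicate 1. The cause of these changes was not tested. The difference between the steps gave 0 calls in every alternative run, with 305 to 476 at an unadjusted p under 0.05. The splice ratio also gave 0 calls, which says nothing of stability, since 1 gene alone could not pass in a design of this size; 2 to 6 ratios were higher and 0 to 5 lower at an unadjusted p under 0.05. Depth limits genes of few reads such as RTA1.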
